A study of Mus musculus with 8 samples.

Results

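The genes described here are 9 genes of hepatic glucose production, chosen by name: the enzymes Pcx, Pck1, Pck2, Fbp1 and G6pc, the transporters Slc37a4 and Slc2a2, and the transcriptional coactivators Ppargc1a and Ppargc1b. All 9 were found by their symbols among the 22481 genes of the deposited table. There were 4 liver samples of male db/db mice and 4 of male lean mice, measured by RNA sequencing of ribosomal RNA-depleted RNA. The db/db mouse carries a spontaneous mutation of the leptin receptor gene in all its cells and becomes obese and diabetic, so the comparison covers the whole disease state and not the liver alone. The lean mice are labelled C57BL/6, and the strain label of the other mice is db/db with no background named. A difference of strain background, if there is one, cannot be told apart from the db/db state. All mice had free access to food, and their age and any fast before sampling are not given in the sources used here. No label says that each sample came from a separate animal, so the p-values reflect sample-to-sample spread that could be partly technical.

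Gluconeogenesis makes glucose from lactate, amino acids and glycerol, and in the fasted body the liver is its main site. It bypasses the irreversible steps of glycolysis with its own enzymes: pyruvate carboxylase and phosphoenolpyruvate carboxykinase at the start, fructose bisphosphatase in the middle and glucose-6-phosphatase at the end. Glucagon and glucocorticoids raise transcription of Pck1 and G6pc through CREB, FOXO1, HNF4A and the glucocorticoid receptor, with PPARGC1A as a shared coactivator, and insulin lowers it.

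In db/db livers 5 of the 9 genes rose, 1 fell and 3 were not called. G6pc rose 2.25-fold, Pcx 1.82-fold, Fbp1 1.65-fold and Slc2a2 1.51-fold in FPKM, which scales fragments to transcript length and library size, and the sparsely expressed Ppargc1a rose 4.34-fold. Pck2, the mitochondrial carboxykinase, fell to 0.318 FPKM in db/db livers, against 1.16 FPKM in lean livers. Pck1, the cytosolic carboxykinase and the most abundant of the 9, was not called, and neither were Slc37a4 and Ppargc1b. Calls are at an adjusted p under 0.05 from limma on log2(FPKM + 1), with Benjamini-Hochberg adjustment over the 10943 genes tested. By the same rule 15.5% of all genes tested were higher and 10.9% were lower in db/db livers. Every db/db value lay above every lean value for the 5 genes that rose and below for Pck2, compared with 16.9% and 11.6% of all genes tested. The median log2 fold change, db/db minus lean, was 0.60 over the 9 genes and 0.04 over all genes tested. Pck2 entered the test only through its lean values, since no db/db sample reached the filter of 0.5 FPKM, so its direction was favoured in advance. Ppargc1a reached 0.5 FPKM in 4 of 4 db/db and 3 of 4 lean samples.

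**Figure D1:**
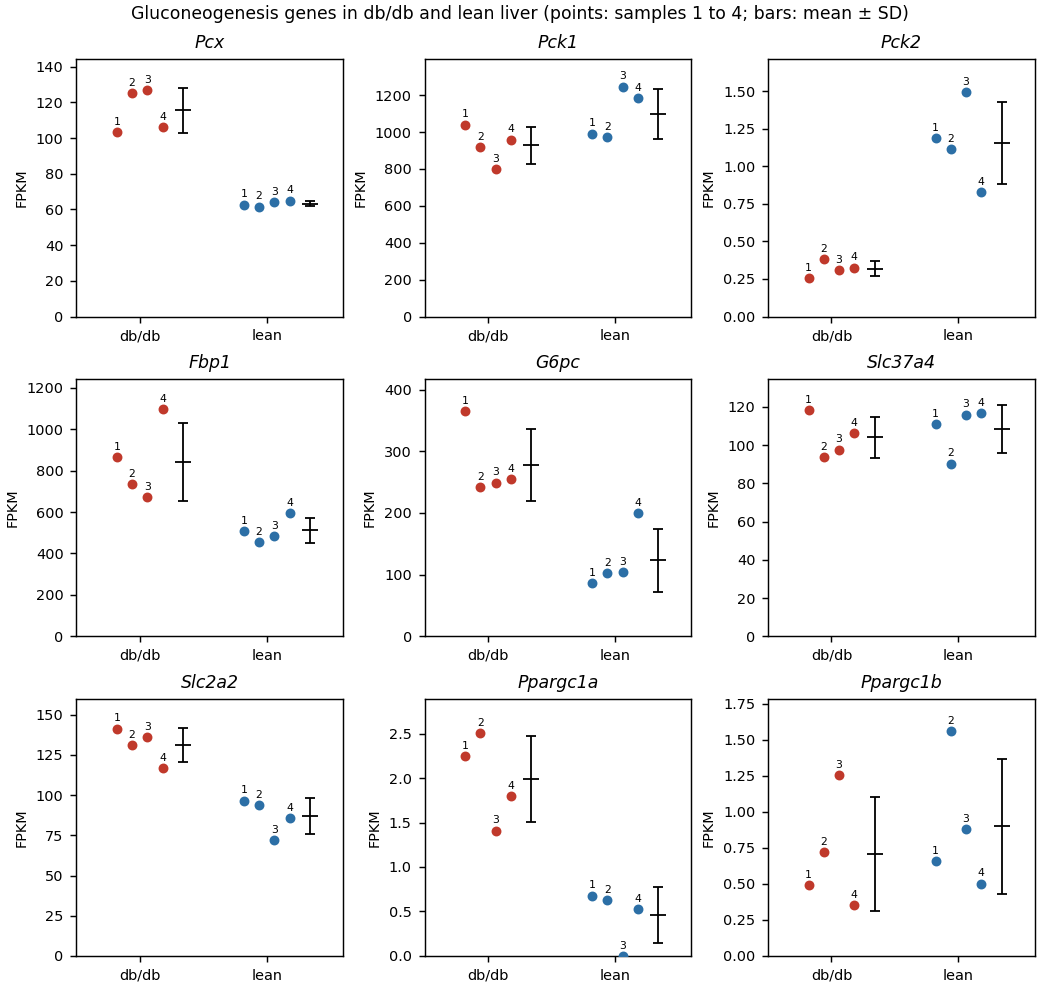
Each panel plots the FPKM of 1 gene on a linear axis from 0, with numbered points for db/db samples 1 to 4 on the left and lean samples 1 to 4 on the right, and bars for the mean ± SD of 4 samples. The groups are apart for Pcx, Pck2, Fbp1, G6pc, Slc2a2 and Ppargc1a and overlap for Pck1, Slc37a4 and Ppargc1b.

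An alternative fit, voom on estimated fragments per gene, gave 5 of the 9 genes as higher and 1 as lower, where 19.7% and 10.3% of all genes tested were called higher and lower. These were the same 6 genes. Estimated fragments in protein-coding genes ranged from 13157724 to 16171658 in db/db samples and from 12174821 to 14978545 in lean samples. The first principal component, with 63.4% of the variance, split db/db from lean. On the next component, holding 10.7%, db/db 1 scored 29.6 where its group otherwise reached at most -4.59, and lean 4 scored 12.8 where its group otherwise reached at most 1.43. Without db/db 1 and lean 4, a setting chosen after seeing the data, 5 of the 9 genes were higher and 1 lower, beside 1456 and 1011 of all genes tested. All 8 hepatocyte markers listed were detected in both groups, and all 8 had negative log2 fold changes. Those of Apob (-0.0025, and 0.35 with voom) and Tat (-0.075) were close to 0. Of the 8 markers 3 were called lower in db/db (Apoa1, Ahsg and Ttr), where 10.9% of all genes tested were lower. The summed level of all 8 was 13018 to 14500 FPKM in db/db and 33106 to 39956 FPKM in lean. Their part in the members' differences was not tested. In whole liver, fewer cells of a type and less RNA per cell cannot be told apart.

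The 250 bases before the annotated start are shown for 3 genes that rose (G6pc, Slc2a2 and Ppargc1a) and for Pck1, the member best known for hormonal control, which was not called. They were chosen with their matches known, so the matches shown say nothing of how matches relate to the rise. Sequences are from RefSeq on GRCm38.p6, the build also named mm10, read 5′ to 3′ on the strand of the gene, and end at the base before the start. Entries were matched by symbol for 8 of the 9 genes. The RefSeq starts of G6pc and Pck1 lie inside the deposited loci given below. Capitals mark matches to 4 motifs on either strand: the core of the cAMP response element (CRE, TGACG or CGTCA), the forkhead core (TGTTTAC or GTAAACA), the nuclear receptor hexamer (AGGTCA or TGACCT) and the TATA box (TATAAA or TTTATA).
G6pc, chr11:101367466-101367715, plus strand: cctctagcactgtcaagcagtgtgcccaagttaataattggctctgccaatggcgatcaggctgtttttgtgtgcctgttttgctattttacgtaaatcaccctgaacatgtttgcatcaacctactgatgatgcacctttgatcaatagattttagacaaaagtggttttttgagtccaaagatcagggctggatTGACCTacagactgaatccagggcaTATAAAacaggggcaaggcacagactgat
Slc2a2, chr3:28697653-28697902, plus strand: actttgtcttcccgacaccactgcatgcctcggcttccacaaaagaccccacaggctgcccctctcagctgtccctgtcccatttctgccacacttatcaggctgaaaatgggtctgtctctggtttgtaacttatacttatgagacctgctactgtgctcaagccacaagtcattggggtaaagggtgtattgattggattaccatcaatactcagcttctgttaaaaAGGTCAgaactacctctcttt
Ppargc1a, chr5:51567726-51567975, minus strand: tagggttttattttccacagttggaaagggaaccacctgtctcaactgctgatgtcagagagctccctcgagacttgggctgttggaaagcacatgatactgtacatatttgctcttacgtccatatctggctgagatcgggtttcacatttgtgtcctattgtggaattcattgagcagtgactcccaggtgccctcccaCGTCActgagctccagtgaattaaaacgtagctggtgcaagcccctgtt
Pck1, chr2:173152823-173153072, plus strand: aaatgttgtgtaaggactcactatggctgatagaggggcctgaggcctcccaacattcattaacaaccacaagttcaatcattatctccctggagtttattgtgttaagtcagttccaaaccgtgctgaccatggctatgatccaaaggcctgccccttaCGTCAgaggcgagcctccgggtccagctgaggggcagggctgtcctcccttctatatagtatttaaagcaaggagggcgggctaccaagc
The Pck1 window held the CRE core at -90 to -86, counted from the start, and the Ppargc1a window held it at -49 to -45. The G6pc window held a nuclear receptor hexamer at -54 to -49 and a TATA box at -29 to -24, and the Slc2a2 window held a nuclear receptor hexamer at -21 to -16. The forkhead core was in none of these 4 windows. Of the members not shown, Fbp1 and Pcx, which rose, and Pck2, which fell, had no match to any of these motifs, while the uncalled Slc37a4 had CRE core, nuclear receptor and TATA matches over its 3 windows. Among 32851 RefSeq windows of the same length, the CRE core was found in 17.8%, the nuclear receptor hexamer in 14%, the TATA box in 12.4% and the forkhead core in 3.17%. The full palindrome TGACGTCA, which contains the CRE core, was in 1.55% of all windows and in none of these 4. A match describes the letters and is not a binding site, and a missing match says only that these letters are absent from this window.

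The path from pyruvate to phosphoenolpyruvate begins in the mitochondrion with pyruvate carboxylase. Pcx (ENSMUSG00000024892, chromosome 19, 4510472 to 4621752, plus strand) stood at 103.5, 125.4, 126.9 and 106.1 FPKM in db/db samples 1 to 4, against 62.8, 61.6, 63.9 and 64.9 FPKM in lean samples 1 to 4. The lowest db/db sample was thus well above the highest lean sample, and the lean samples were nearly equal, with a coefficient of variation of 10.7% in db/db against 2.25% in lean. On the log2 scale the difference was 0.85 (SE 0.10, limma adjusted p = 0.000185), the smallest adjusted p among the 9 genes. In the deposited table Pcx shares a locus with Lrfn4, so its fragments are less certain.

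Phosphoenolpyruvate carboxykinase exists as a cytosolic form, Pck1, and a mitochondrial form, Pck2. Pck1 (ENSMUSG00000027513, chromosome 2, 173153048 to 173159273, plus strand) had 1040.4, 919, 799 and 959 FPKM in db/db samples 1 to 4, and 992, 973, 1246 and 1183 FPKM in lean samples 1 to 4. The ranges overlapped, with db/db 1 above lean 1 and lean 2. The log2 fold change was -0.24 (95% confidence interval -0.52 to 0.04, limma adjusted p = 0.195). Pck2 (ENSMUSG00000040618, chromosome 14, 55540266 to 55550017, plus strand) had 0.256, 0.381, 0.309 and 0.326 FPKM in db/db samples 1 to 4, against 1.19, 1.12, 1.497 and 0.831 FPKM in lean samples 1 to 4. Every db/db sample was below every lean sample. Behind these levels stood 17 to 22 estimated fragments for db/db and 43 to 79 for lean, counted per sample. The log2 fold change of FPKM + 1 was -0.70 (SE 0.12, limma adjusted p = 0.00184), a scale that understates the change of low genes, and voom on fragments gave -1.80 (SE 0.30, voom adjusted p = 0.00122). Pck2 made up 0.0347 ± 0.00736% of the summed FPKM of both forms in db/db livers and 0.106 ± 0.0241% in lean livers (SD, n = 4 each), so Pck1 was nearly all of the carboxykinase mRNA in both groups.

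Fructose bisphosphatase, which removes a phosphate from fructose bisphosphate against the direction of glycolysis, was the second most abundant of the 9. Fbp1 (ENSMUSG00000069805, chromosome 13, 62864753 to 62888282, minus strand) had 865, 734, 671 and 1099 FPKM in db/db samples 1 to 4, against 509, 454, 485 and 597 FPKM in lean samples 1 to 4. The lowest db/db sample was db/db 3 and the highest lean sample was lean 4, and they did not meet. The difference was 0.70 on the log2 scale (SE 0.16, limma adjusted p = 0.00867).

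The final step takes place in the endoplasmic reticulum, where Slc37a4 carries glucose 6-phosphate in and G6pc, the catalytic subunit of glucose-6-phosphatase, releases glucose. G6pc (ENSMUSG00000078650, chromosome 11, 101367561 to 101377903, plus strand) had 364.8, 242, 249 and 254 FPKM in db/db samples 1 to 4, against 85.9, 102.9, 104.3 and 199.4 FPKM in lean samples 1 to 4. Sample 1 stood out upward among the db/db livers and sample 4 among the lean livers, and the groups still did not overlap. G6pc had a log2 fold change of 1.22 (SE 0.24, limma adjusted p = 0.00393). With both of these samples left out, the mean was 248.5 ± 6.10 FPKM in db/db and 97.7 ± 10.2 FPKM in lean (SD, n = 3 each), a 2.54-fold difference (log2 fold change 1.34, limma adjusted p = 6.47e-05). The samples left out were those that stood out for G6pc itself, which narrows its spread in advance. The smaller p is thus no added support.

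Slc37a4 (ENSMUSG00000032114, chromosome 9, 44398176 to 44402963, plus strand) had 118.5, 93.8, 97.7 and 106.2 FPKM in db/db samples 1 to 4, and 111.1, 90.3, 116.0 and 116.7 FPKM in lean samples 1 to 4. The highest single value was in db/db 1 and the lowest in lean 2, so the groups were interleaved. The log2 fold change was -0.06, with a 95% confidence interval of -0.32 to 0.20 (limma adjusted p = 0.750).

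Glucose leaves the hepatocyte through the facilitative transporter GLUT2, encoded by Slc2a2, which also admits glucose when blood levels are high. Slc2a2 (ENSMUSG00000027690, chromosome 3, 28697903 to 28781108, plus strand) had 141.4, 131.3, 136.2 and 116.8 FPKM in db/db samples 1 to 4, against 96.6, 93.6, 72.1 and 85.7 FPKM in lean samples 1 to 4. All db/db samples were above all lean samples. Slc2a2 had a log2 fold change of 0.60 (SE 0.12, limma adjusted p = 0.00390). The deposited locus is shared with Gm6505 and runs past the end of Slc2a2 in the GENCODE vM21 annotation, at 28731359, so the fragments of this gene are less certain.

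The coactivators bind transcription factors and have no DNA contact of their own. Ppargc1a drives gluconeogenic and mitochondrial genes in the fasted liver, and Ppargc1b is known for its work with SREBP factors and in mitochondrial gene expression. Ppargc1a (ENSMUSG00000029167, chromosome 5, 51454249 to 51567725, minus strand) had 2.25, 2.51, 1.41 and 1.80 FPKM in db/db samples 1 to 4, against 0.677, 0.632, 0.000294 and 0.524 FPKM in lean samples 1 to 4. The lowest db/db value was above the highest lean value. The value of lean 3 amounted to 0.0301 of an estimated fragment, while the other lean samples had 52.7 to 79.6 fragments and the db/db samples 150.6 to 290.0, so the lean 3 value may be a failed estimate. Without lean 3 the lean mean was 0.611 ± 0.0785 FPKM (SD, n = 3) and the db/db mean, 1.99 FPKM, was 3.26-fold higher. The log2 fold change of FPKM + 1 was 1.05 (SE 0.19, limma adjusted p = 0.00232) with all samples. Voom gave 3.40 (SE 1.01, voom adjusted p = 0.0254), and without lean 3, a setting chosen after seeing the data, 1.71 (voom adjusted p = 0.00164).

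Ppargc1b (ENSMUSG00000033871, chromosome 18, 61298136 to 61400431, minus strand) had 0.494, 0.721, 1.26 and 0.352 FPKM in db/db samples 1 to 4, and 0.659, 1.56, 0.878 and 0.501 FPKM in lean samples 1 to 4. The groups overlapped and each varied over a wide range (the highest sample was 3.57 times the lowest in db/db and 3.11 times in lean). The highest db/db value, in db/db 3, had far more FPKM per deposited signal than any other sample, and the signal itself ran from 21.3 to 43.8 in db/db, with 28.8 in db/db 3. All the values rested on 22 to 45 estimated fragments in db/db and 28 to 83 in lean. Ppargc1b had a log2 fold change of -0.15, with a 95% confidence interval of -0.59 to 0.29 (limma adjusted p = 0.610). Voom gave -0.69 with an interval of -1.52 to 0.13 (voom adjusted p = 0.189), so neither a fall of that size nor no change was shown.

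An exact two-sided permutation test of the mean log2(FPKM + 1) gives p = 0.0286, the smallest possible with 4 samples against 4, wherever groups do not overlap, so for the 6 genes called it adds nothing to the values above. The same exact permutation test gave p = 0.114 for Pck1, p = 0.657 for Slc37a4 and p = 0.514 for Ppargc1b.

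**Figure D2:**
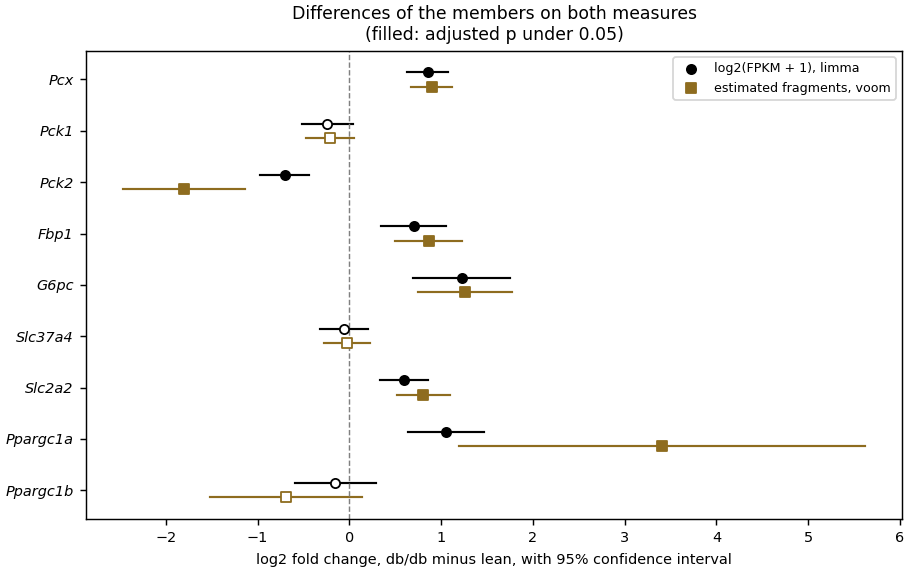
Log2 fold changes of the 9 genes, db/db minus lean, are plotted on the x axis with 95% confidence intervals, as circles for log2(FPKM + 1) with limma and squares for estimated fragments with voom, filled where the adjusted p was under 0.05. The estimates are close for Pcx, Pck1, G6pc and Slc37a4. They are farther apart for the sparsely expressed Pck2 (-0.70 and -1.80), Ppargc1a (1.05 and 3.40) and Ppargc1b (-0.15 and -0.69). Without lean 3, whose Ppargc1a value is near 0, the voom estimate of Ppargc1a was 1.71.

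Levels in FPKM, which are per transcript length, can be set beside each other within a sample. In db/db livers the order of group means was Pck1, Fbp1, G6pc, Slc2a2, Pcx, Slc37a4, Ppargc1a, Ppargc1b and Pck2. In lean livers it was Pck1, Fbp1, G6pc, Slc37a4, Slc2a2, Pcx, Pck2, Ppargc1b and Ppargc1a. Neighbours whose ranges overlapped in db/db were Pck1 with Fbp1, Slc2a2 with Pcx, Pcx with Slc37a4, and Ppargc1b with Pck2. In lean the overlapping neighbours were G6pc with Slc37a4, Slc37a4 with Slc2a2, Pck2 with Ppargc1b, and Ppargc1b with Ppargc1a. Pck1 was above Fbp1 in 3 of 4 db/db samples, the exception being db/db 4, and in 4 of 4 lean samples. Pcx was the lowest of the abundant genes in every lean sample.

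Ratios within a sample set the mRNA levels of genes beside each other and do not measure the activity of the steps. They were chosen after the values were seen and are given without a test. G6pc over Slc37a4, the enzyme and the transporter of one step, was 3.08, 2.58, 2.55 and 2.40 in db/db samples 1 to 4, against 0.773, 1.14, 0.899 and 1.71 in lean samples 1 to 4. G6pc over Pck1 was 0.298 ± 0.0417 in db/db and 0.111 ± 0.0395 in lean, and Fbp1 over Pck1 was 0.904 ± 0.162 in db/db and 0.468 ± 0.0566 in lean (SD, n = 4 each). Pcx over Pck1 was 0.126 ± 0.0266 in db/db and 0.0582 ± 0.00608 in lean. The db/db samples were above the lean samples throughout for these 4 ratios. 

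Against the opposing glycolytic enzymes the picture differed by step. Pck1 over Pklr, the liver pyruvate kinase that consumes phosphoenolpyruvate, was 5.01, 4.33, 4.43 and 6.92 in db/db samples 1 to 4, against 12.6, 13.1, 26.5 and 11.6 in lean samples 1 to 4, with no overlap. Fbp1 over Pfkl, the liver phosphofructokinase, was 88.9 ± 16 in db/db and 92.1 ± 18 in lean, with overlapping groups. Between the coactivators, Ppargc1b made up 18, 22.4, 47.1 and 16.4% of their summed FPKM in db/db samples 1 to 4, against 49.3, 71.2, 100 and 48.9% in lean samples 1 to 4. The share in lean 3 rests on its Ppargc1a value near 0, and that in db/db 3 on a Ppargc1b FPKM that was 43.7 per 1000 units of deposited signal, where the other samples had 16.4 to 17.1.

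**Figure D3:**
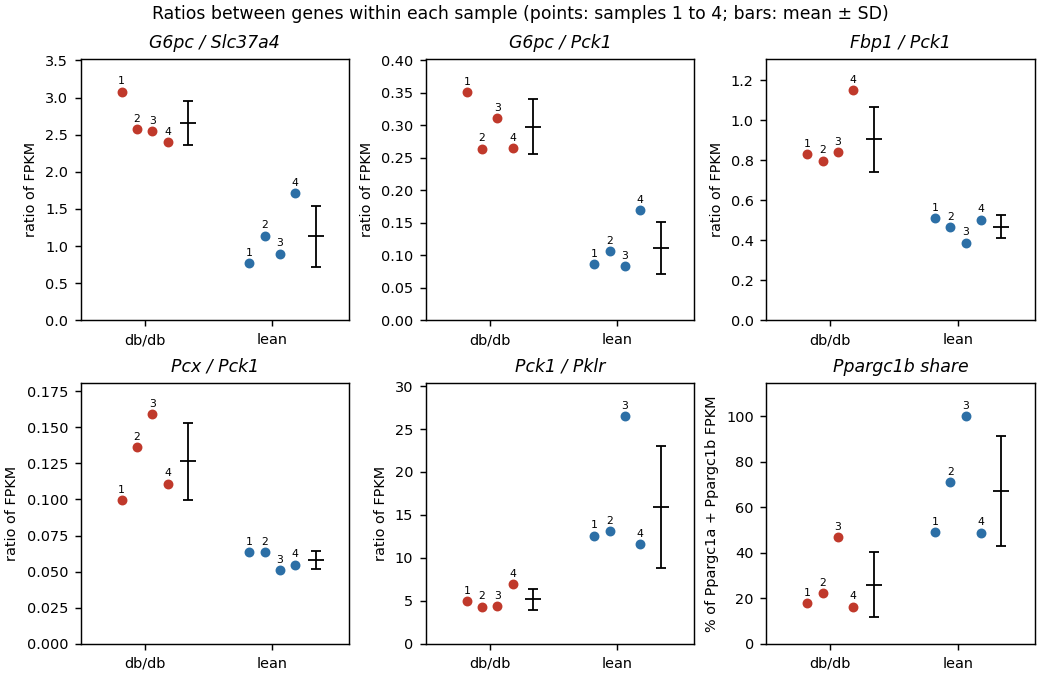
Points are ratios of FPKM, or the Ppargc1b share in percent, in db/db samples 1 to 4 (left) and lean samples 1 to 4 (right), with bars for the mean ± SD of 4 samples and axes from 0. Ratios of G6pc, Fbp1 and Pcx to Pck1 are higher in db/db, and Pck1 over Pklr is lower, at 5.17 ± 1.2 in db/db against 16 ± 7.06 in lean.

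The deposited FPKM and the deposited normalized signal (estimated fragments scaled by library) did not always move together. FPKM per 1000 units of signal differed by at most 1.01 times between samples for Pck1, Pck2, G6pc, Pcx, Slc37a4 and Ppargc1a. For Fbp1 the db/db range was 43.6 to 44.7 and the lean range 43.7 to 53.1, and for Slc2a2 the db/db range was 23.9 to 27.2 and the lean range 26.7 to 30.7. For both genes voom on fragments gave a larger estimate than FPKM, with a log2 fold change of 0.86 for Fbp1 and 0.81 for Slc2a2. Ppargc1b stood at 43.7 for db/db 3, with every other sample between 16.4 and 17.1. The high FPKM of Ppargc1b in db/db 3 therefore came with 28 estimated fragments, fewer than the 34 and 45 of db/db 1 and db/db 2. The transcript lengths behind these values are not given in the sources used here, and their part in the difference was not tested.

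**Figure D4:**
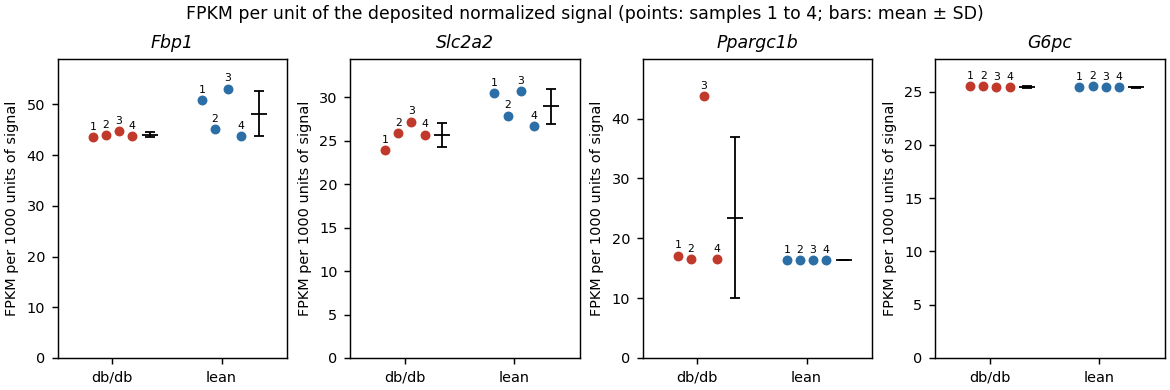
FPKM per 1000 units of the deposited normalized signal is plotted for Fbp1, Slc2a2, Ppargc1b and G6pc, with points for db/db samples 1 to 4 (left) and lean samples 1 to 4 (right), bars for the mean ± SD of 4 samples, and axes from 0. G6pc is level in all samples, while db/db 3 stands at 43.7 for Ppargc1b.

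Among 6 reversible enzymes that gluconeogenesis shares with glycolysis, 4 rose and 0 fell. Over all genes tested, 15.5% were higher and 10.9% lower. Pgam1, a phosphoglycerate mutase, averaged 32.0 ± 3.06 FPKM in db/db and 18.5 ± 2.50 FPKM in lean, and Pgk1, a phosphoglycerate kinase, 199.8 ± 27.4 and 115.9 ± 22.1 FPKM in the same order (SD, n = 4 each; limma adjusted p = 0.00121 and 0.00361). Gapdh, glyceraldehyde phosphate dehydrogenase and the most abundant of them, had 203, 898, 101.2 and 836 FPKM in db/db samples 1 to 4, against 690.2, 549.8, 558 and 538 FPKM in lean samples 1 to 4, and was not called (limma adjusted p = 0.405). Its db/db samples thus lay on both sides of the lean range. The list median was 0.52. Tpi1, named after its values were seen, was the weakest of the 4 calls (limma adjusted p = 0.0451). Its groups nearly touched, at 225.0 FPKM in db/db 3 and 224.9 FPKM in lean 3. Of 6 genes of the opposing glycolytic steps and their regulators, 4 rose and 0 fell, with a median of 0.82. The 4 were Gckr, Pklr, Pdk4 and Pfkl, the last 2 named after their values were seen. Enzymes and regulators are mixed in this list, so its median does not measure a rise of glycolysis. Pdk4 averaged 6.09 ± 3.05 FPKM in db/db and 0.633 ± 0.141 FPKM in lean. Pklr averaged 184.7 ± 33.8 FPKM in db/db and 75.5 ± 22.6 FPKM in lean, and Gckr, a regulatory protein of hepatic sugar metabolism, 54.7 ± 4.27 and 27.5 ± 4.73 FPKM in the same order (limma adjusted p = 0.00154 and 0.000484). Called genes of both lists were higher in db/db.

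Of 21 genes that bring lactate, amino acids and glycerol into the pathway, 7 rose and 0 fell, with a list median of 0.30. In either direction 33.3% were called, beside 26.4% of all genes tested. All the called genes were higher, where 15.5% of all genes tested were higher and 10.9% lower. The difference between these shares was not tested. Gpd1, the glycerol 3-phosphate dehydrogenase that links glycerol to triose phosphates, averaged 252.7 ± 23.2 FPKM in db/db and 94.7 ± 9.11 FPKM in lean (SD, n = 4 each; limma adjusted p = 1.08e-05). Slc25a10, the mitochondrial dicarboxylate carrier that exports malate, averaged 142.9 ± 26.2 FPKM in db/db and 57.3 ± 8.45 FPKM in lean (limma adjusted p = 0.000188). Tat, tyrosine aminotransferase, had the highest mean of the list and was not called, at 760.8 ± 310.7 FPKM in db/db and 815.6 ± 358.5 FPKM in lean (limma adjusted p = 0.892). The other genes that rose were Gpt2, Slc16a7, Mdh1, Got2 and Ldha, named after their values were seen, with log2 fold changes of 0.44 to 1.37. They serve alanine transamination, monocarboxylate transport, malate and aspartate exchange, and lactate use. Of 8 isozymes of the member families, 4 were tested, and Slc2a9, a urate and hexose transporter, was the only one called, at 17.4 ± 2.90 FPKM in db/db and 11.7 ± 1.6 FPKM in lean (limma adjusted p = 0.0223), a call lost without any 1 of db/db 1, 2 or 4 or lean 2 or 4 (limma adjusted p = 0.0506 to 0.0639).

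Regulators of the program came next. Of 23 transcription factors and signalling genes tested, 1 rose and 1 fell, with a median of -0.07. The share called was 8.70%, beside 26.4% of all genes tested, and the difference between these shares was not tested. With median-ratio rescaling 4 of these genes were called, beside 1463 higher and 1382 lower over all genes tested. Cebpa, a CCAAT-binding activator of Pck1 and G6pc, averaged 87.5 ± 5.90 FPKM in db/db and 118.8 ± 10.6 FPKM in lean (SD, n = 4 each; limma adjusted p = 0.00951). Sik2, a salt-inducible kinase that restrains the CREB coactivator CRTC2, averaged 1.47 ± 0.389 FPKM in db/db and 0.734 ± 0.246 FPKM in lean (limma adjusted p = 0.0311), a call lost without any 1 of db/db 1 or 4 or lean 1 or 2 (limma adjusted p = 0.0675 to 0.0864). Hnf4a, the most abundant of the list, was not called (log2 fold change -0.28, limma adjusted p = 0.0766), and was called lower without db/db 1, with median-ratio rescaling, with library weights and without db/db 1 and lean 4 (limma adjusted p = 0.0356 to 0.0464). Foxo1, named after its values were seen, averaged 6.11 ± 1.6 FPKM in db/db and 6.06 ± 0.881 FPKM in lean (limma adjusted p = 0.971), and Creb1 1.9 ± 0.302 and 2.04 ± 0.251 FPKM in the same order (limma adjusted p = 0.715). Activity of such factors through phosphorylation or location is not seen in mRNA.

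Of 17 partners and mitochondrial targets of the coactivators, 1 rose and 1 fell, with a median of 0.00. The share called was 11.8%, beside 26.4% of all genes tested. Acadm, the medium-chain acyl-CoA dehydrogenase of fatty acid oxidation, averaged 316.7 ± 43.7 FPKM in db/db and 154.0 ± 8.89 FPKM in lean (SD, n = 4 each; limma adjusted p = 0.000142). Idh3a, a subunit of the citrate cycle isocitrate dehydrogenase, averaged 13.7 ± 1.49 FPKM in db/db and 18.4 ± 0.999 FPKM in lean (limma adjusted p = 0.0199), a call lost without any 1 of db/db 2 or 3 or lean 1 or 4 (limma adjusted p = 0.0501 to 0.0555). Atp5b, the beta subunit of ATP synthase and the most abundant gene of the list, was not called, at 1119 ± 147.4 FPKM in db/db and 1256 ± 129.7 FPKM in lean (limma adjusted p = 0.371). Its difference was -0.17 on log2(FPKM + 1) and 0.23 with voom. Voom called 5 genes of this list, where it called 19.7% of all genes tested higher and 10.3% lower. Named after their values were seen, they were Acadm, Ppara and Ncoa6, which were higher, and Idh3a and Nrf1, which were lower. The log2 fold change of Ppara was 0.04 on log2(FPKM + 1) and 0.99 with voom. The low share called in this list thus depended on the measure.

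**Figure D5:**
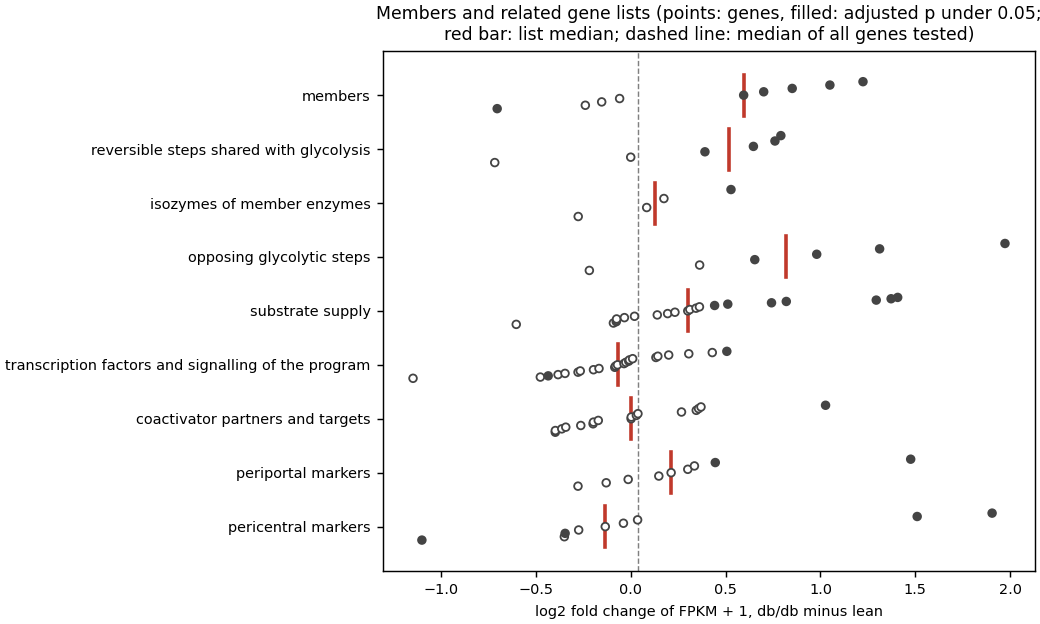
Points are log2 fold changes of FPKM + 1, db/db minus lean, for the tested genes of each list, filled where the limma adjusted p was under 0.05, with a red bar at the list median and a dashed line at the median of all genes tested, 0.04. The members, the reversible glycolytic enzymes and the opposing glycolytic steps with their regulators have medians of 0.52 to 0.82. Transcription factors and signalling genes, and coactivator partners, lie around 0.

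Across the 8 samples, G6pc varied most of the 9 genes (SD of log2(FPKM + 1) 0.76). The genes with the profile closest to it, by the root mean square difference of centred log2(FPKM + 1) values over all 8 samples, were Dag1, Palld and Sntb1, with differences of 0.21 each. Dag1 encodes dystroglycan, Palld an actin-binding scaffold and Sntb1 a syntrophin. Sntb1 had 12.4, 6.35, 5.01 and 6.99 FPKM in db/db samples 1 to 4, against 1.95, 2.71, 2.84 and 4.29 FPKM in lean samples 1 to 4. They share with G6pc the highest db/db sample, db/db 1, and the highest lean sample, lean 4, as follows from how they were selected.

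Gluconeogenesis is strongest in hepatocytes around the portal vein, so zonation markers were read beside the members. The summed level of 9 periportal markers was 3169 to 4344 FPKM in db/db and 2745 to 3493 FPKM in lean, with 2 of 9 called higher and 0 lower. Over all genes tested, 15.5% were higher and 10.9% lower. Etnppl, a phospholyase, averaged 146.4 ± 65.5 FPKM in db/db and 48.8 ± 3.65 FPKM in lean (SD, n = 4 each), while Ass1, the urea cycle enzyme with the highest mean, was not called (limma adjusted p = 0.118). Gls2, the liver glutaminase, was called higher (limma adjusted p = 0.0342), and the call was lost in 7 of 18 other settings (limma adjusted p = 0.0545 to 0.0924). Voom also called Hal, named after its values were seen, higher (log2 fold change 0.58, voom adjusted p = 0.0124). On log2(FPKM + 1) Hal had -0.01 and was not called (limma adjusted p = 0.960). Voom called 19.7% of all genes tested higher. The summed level of 9 pericentral markers was 4325 to 5740 FPKM in db/db and 4988 to 6407 FPKM in lean, with 2 higher and 2 lower. Rhbg, an ammonium transporter, rose 4.27-fold and Oat, ornithine aminotransferase, 2.89-fold, while Cyp2e1, the most abundant marker, was not called (limma adjusted p = 0.0870). The 2 pericentral markers that fell were Cyp1a2 and Gulo, named after their values were seen.

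Of the gap in summed hepatocyte markers described above, most was Apoa1, at 981.7 ± 273.5 FPKM in db/db and 15006 ± 2440 FPKM in lean (SD, n = 4 each). Ahsg averaged 2983 FPKM in db/db and 7194 FPKM in lean, Ttr 4828 and 7766 FPKM, and Apob 998.1 and 999.4 FPKM in the same order. Of 7 Kupffer cell markers 3 were lower, where 10.9% of all genes tested were lower. The Kupffer cell sums were 89.4 to 122 FPKM in db/db and 131 to 201 FPKM in lean. Of 6 endothelial markers 1 was lower, with sums of 45.2 to 51.4 FPKM in db/db and 55.8 to 66.8 FPKM in lean. The largest part of these sums was Clec4g, the gene called lower, at 30.3 ± 1.87 FPKM in db/db and 43.4 ± 3.89 FPKM in lean. Of the 6 endothelial markers, 4 had positive and 2 negative log2 fold changes. Stellate and cholangiocyte sums overlapped between the groups, at 89.3 to 115 FPKM in db/db and 89.7 to 107 FPKM in lean for stellate cells, and 35.7 to 53.0 FPKM in db/db and 29.7 to 51.6 FPKM in lean for cholangiocytes. Lymphocyte markers summed to at most 0.873 FPKM in db/db and 2.03 FPKM in lean, and none of the 5 was tested. Adipocyte markers summed to 27.3 to 50.8 FPKM in db/db and 15.4 to 20.5 FPKM in lean, nearly all of it Fabp4, with Lep listed at 0 in all samples. The part of these shifts in the members' differences was not tested.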

How the data were processed

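Liver RNA of 8 samples, 4 db/db and 4 lean, grouped and numbered by their titles, was analysed from 1 deposited table of protein-coding genes. The submitters' processing notes name HISAT2 2.0.4, Cuffdiff, Cufflinks, cutadapt 1.9.3 and mm10, without saying what each did. FPKM values are as deposited, and the lengths the authors used for them are unknown. The columns headed counts held a deposited normalized signal: 90.4 to 90.9% of values below 2000 steps were whole multiples of 1 step per library (0.850 to 1.14), within 0.05 of a step. Dividing by the step gave estimated fragments.

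Rows of 1 symbol were summed (162 rows of 79 symbols). Genes with at least 0.5 FPKM in at least 4 samples, 10943 in all, were tested on log2(FPKM + 1) with limma 3.58.1 in R 4.3.3 (lmFit, eBayes with a mean trend), two-sided. Adjusted p-values (Benjamini-Hochberg) under 0.05 were called. Differences are db/db minus lean on the log2 scale, and folds are ratios of mean FPKM. They are on the log2(FPKM + 1) scale unless voom is named, and this scale understates the change of low genes. The fit was checked on data with known changes. No replicates of 1 group agreed within sampling noise: the smallest chi-square per degree of freedom between them was 13.9 over 10870 genes. Locus starts in the table count from 0 and are given here counted from 1.

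The members and the 15 gene lists were chosen with earlier results of these data known, so no pattern here is independent support. Named genes were the 9 members, for each pathway and zonation list the 2 called genes with the smallest adjusted p and the gene with the highest mean, and the 3 genes with the profile nearest to the most variable member. Some genes of these lists are not reported here. List symbols absent from the table were matched through their gene ID. Other genes with values, and all ratios but the Pck2 and Ppargc1b shares, were chosen after their values were seen. Other settings were pseudocounts of 0.1 and 0.5, no filter, a filter of 1 FPKM in all samples, median-ratio rescaling, voom, library weights, a replicate block, no mean trend, the highest row of each symbol, and leaving out each sample.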

Additional observations from a re-analysis of the deposited data

Results flagged for a closer look

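Within groups of 4 samples, the highest or lowest value was marked when its gap to the nearest other sample, relative to the group's range, passed Dixon's 95% critical value. Of 66 groups looked at for the members, the other genes named by rule and the nearest profiles, 4 had such a value, where chance gives about 1 in 20. G6pc stood out in both groups: db/db 1 had 364.8 FPKM, against 242.2 to 254.4 FPKM in the other db/db samples, and lean 4 had 199.4 FPKM, against 85.9 to 104.3 FPKM in the other lean samples. Both samples also had the highest score of their group on the second principal component, 29.6 for db/db 1 and 12.8 for lean 4. The G6pc call held without db/db 1 (log2 fold change 1.09, limma adjusted p = 0.00902), without lean 4 (1.48, limma adjusted p = 0.000237) and without both. Leaving out samples flagged for G6pc narrows its spread in advance, so these fits are no independent support. Gapdh in lean 1 was high, at 690.2 FPKM against 538.2 to 557.9 FPKM in the other lean samples. Slc2a9 in db/db 3 was low, at 13.0 FPKM against 18.7 to 19.1 FPKM in the other db/db samples.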

How the results depend on the processing

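The 6 calls among the members held in every other setting in which the gene was tested (18, and 2 chosen after seeing the data). Over all of them the log2 fold change of G6pc ranged from 1.08 to 1.48, of Fbp1 from 0.56 to 0.86, of Pcx from 0.79 to 0.91, of Slc2a2 from 0.51 to 0.81, of Ppargc1a from 0.88 to 3.40 and of Pck2 from -1.80 to -0.63. A filter of 1 FPKM in all samples removed Pck2, Ppargc1a and Ppargc1b from the test, so it left 4 members higher and 0 lower. Of the uncalled members, Pck1 kept its sign, while Ppargc1b had 0.0006 without lean 2 (-0.30 to 0.0006 over single samples left out) and Slc37a4 0.0061 with voom without lean 3. Over all genes, leaving out 1 sample gave 1321 to 1542 higher and 915 to 1110 lower. The called reversible enzymes numbered 3 with no filter, median-ratio rescaling, a replicate block or no mean trend, and 3 to 4 with 1 sample left out. The called isozymes numbered 0 to 1 with 1 sample left out and 0 without db/db 1 and lean 4. The called regulators numbered 1 with the filter of 1 FPKM, 4 with median-ratio rescaling and 1 to 3 with 1 sample left out. The called coactivator partners numbered 5 with voom, 4 with library weights, 4 with voom without lean 3 and 1 to 3 with 1 sample left out. The cause was not tested. Atp5b turned to 0.23 with voom and 0.21 with voom without lean 3. Tat turned to 0.18 with voom without lean 3 and ranged from -0.32 to 0.15 with 1 sample left out. Of 419 fold changes of the other named genes in these settings, 379 kept their direction and side of the threshold, 24 lost a call, 9 gained one and 7 turned. Same-numbered samples did not pair (correlations of deviations from group means -0.221, 0.0293, 0.110 and -0.00925), and not every sample correlated best with its own number. With the replicate number as a block, the Sik2 and Gls2 calls were lost (limma adjusted p = 0.0690 and 0.0674), 1472 genes were higher and 1042 lower, and 5 members were higher and 1 lower. Pck2, Ppargc1b and the lean values of Ppargc1a rest on under 100 fragments per sample, which limits their precision.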
